A study of Homo sapiens with 6 samples.

Results

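The SUMO-2/3 peaks described here surround MYC on the long arm of human chromosome 8. They were all peaks of the mock, Ara-C and DNR lists whose midpoint lay in a stretch of 10 Mb of chromosome 8 (hg19), from 3.75 Mb before the start site of MYC to 6.25 Mb after it, with its last base at 134999999. Positions below are on chromosome 8 of hg19 and count from 1. There were 1073 such peaks of 44265 in mock-treated cells, 1165 of 72279 after Ara-C and 964 of 33355 after DNR, or 3202 of 149899 in all. This stretch was chosen by its measured peak density, so the high density itself is what selected it and is given as a description with no test. It held 77.6% of all mock peaks of chromosome 8, 62.5% of the Ara-C peaks and 83.9% of the DNR peaks.

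The cells were HL-60, an established line of human acute myeloid leukaemia. They were treated for 2 h with water (mock), with 2 µM cytosine arabinoside (Ara-C), a nucleoside analogue, or with 1 µM daunorubicin (DNR), an anthracycline. Chromatin bound by SUMO-2/3-conjugated proteins was immunoprecipitated and sequenced (ChIP-seq), and the study asked whether the drugs alter its distribution. Before sequencing, the DNA of 3 biological replicates had been combined within each condition. Each condition was therefore 1 library and 1 peak list, so no value below has a replicate check and no p-value is given. The 3 inputs, the chromatin before immunoprecipitation, were not analysed here. The lists do not give the sequencing depth, so depth and treatment cannot be told apart.

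SUMO proteins are small ubiquitin-like proteins that are attached to lysines of other proteins and removed again by proteases. On chromatin many of their targets are transcription factors and chromatin regulators, so a SUMO-2/3 peak marks a place where conjugated proteins sit on DNA and not a single factor. MYC encodes a transcription factor that drives growth and proliferation, and TRIB1 encodes a pseudokinase that targets the myeloid factor C/EBPα for degradation. Much of the DNA between these genes is occupied by long non-coding RNA genes. HL-60 is also known as a line in which DNA around MYC is amplified. DNA copy number was not analysed here, and its part in the values below was not tested.

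In mock-treated cells the peaks lay in 6 separate blocks with next to nothing between them. A dense segment was defined as a run of at least 20 peaks whose neighbouring midpoints were at most 20 kb apart. Segment 1 ran from 126224901 to 126547400, segment 2 from 126711151 to 127386400 and segment 3 from 128073801 to 128343750. Segment 4, the one that held MYC, ran from 128690301 to 128791500. Segment 5 ran from 130001351 to 130215150 and segment 6 from 130367401 to 130698300. They were 101.2 kb (segment 4) to 675.2 kb (segment 2) long and were spread over 4.47 Mb. Together they made up 19.1% of the 10 Mb and held 1042 of its 1073 mock peaks (97.1%).

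The same blocks were present in both drug-treated lists. Taken on its own, the Ara-C list had 6 segments with 93.7% of its peaks in the 10 Mb, and the DNR list had 7 segments with 98.2%. The extra DNR segment arose because segment 1 was interrupted between 126370250 and 126389901 in that list. Every other segment of either drug list matched 1 mock segment. The mock segments were used below as a common frame, in which 1042 mock, 1084 Ara-C and 944 DNR peaks lay.

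Between the segments the lists were almost empty. The 687.4 kb between segments 2 and 3 held 0 mock, 5 Ara-C and 8 DNR peaks. The 346.6 kb between segments 3 and 4 held 0 mock, 5 Ara-C and 1 DNR peaks. The 1210 kb between segments 4 and 5 held 1, 6 and 4 peaks. The 2 shortest spaces, between segments 1 and 2 and between segments 5 and 6, held 1 Ara-C peak each and no peak of the other lists. The mock numbers are low in part by definition, since a mock run ends where its peaks stop, whereas the drug lists did not set this frame.

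**Figure D1:**
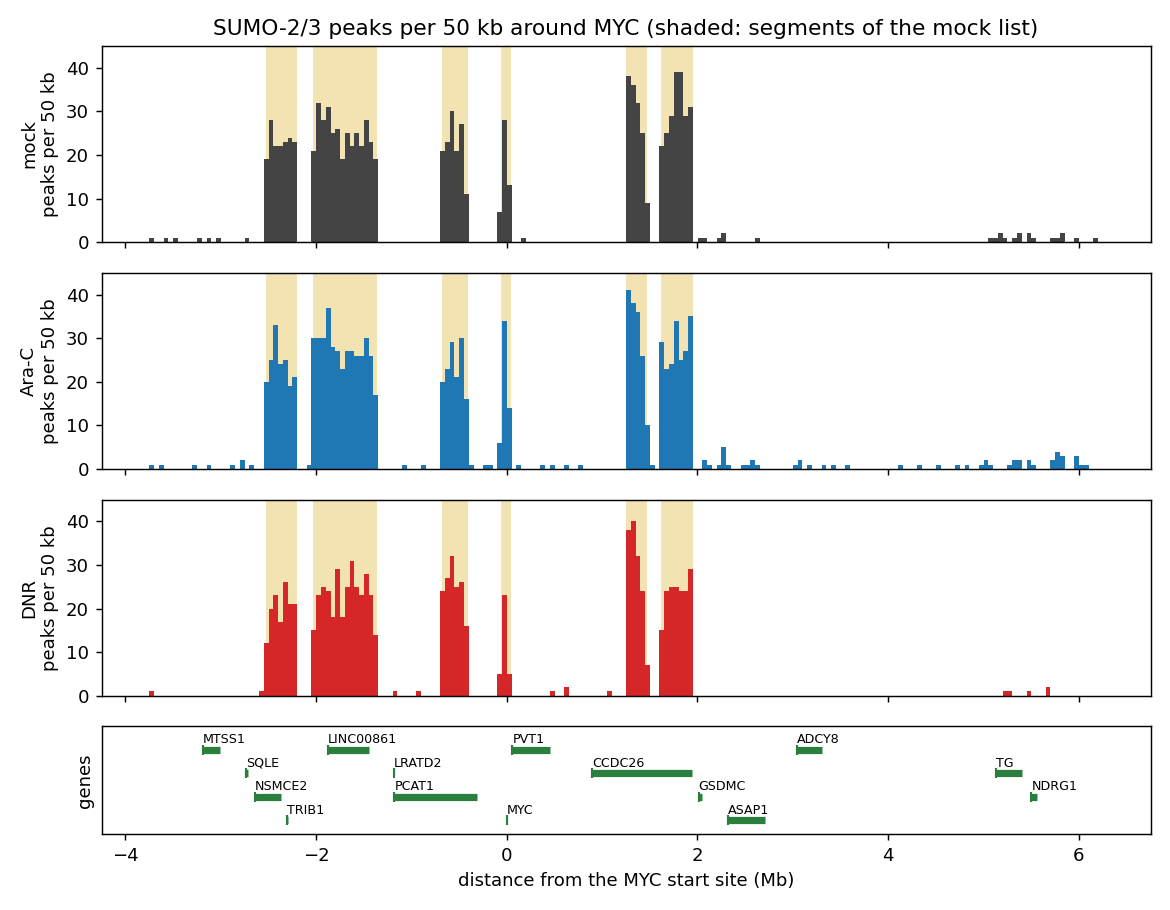
Number of SUMO-2/3 peaks per 50 kb (vertical axis) in the mock, Ara-C and DNR lists against the distance from the MYC start site in Mb (horizontal axis), with the 6 mock segments shaded and selected genes drawn below (a tick marks the left end of each gene). Windows wholly inside a segment hold 17 to 40 peaks in each list, windows outside hold at most 5, and PVT1 lies in the empty stretch to the right of MYC.

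Counts in fixed windows showed the same contrast. The windows were classed by the mock segments, so the mock contrast follows in part from that definition. The 10 Mb holds 200 windows of 50 kb, of which 30 lay wholly inside a mock segment and 158 wholly outside. Inside, the median was 25.5 mock peaks per window (19 to 39), 27 Ara-C peaks (19 to 38) and 24.5 DNR peaks (17 to 40). Outside, the median was 0 in each list and the highest window held 2, 5 and 2 peaks. The windows wholly inside and wholly outside therefore did not overlap in any list. Windows cut by an edge were left out. Among them, the window from 128750000, 83% inside, held 13 mock, 14 Ara-C and 5 DNR peaks. In windows of 100 kb, 18 mock, 18 Ara-C and 14 DNR windows of this stretch held at least 40 peaks, against 0 of 30870 windows in the rest of the genome for each list.

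The same rule also found segments elsewhere in the genome. There were 11 in the mock list, 52 in the Ara-C list and 13 in the DNR list, with at most 50, 44 and 41 peaks. Around MYC the segments held 48 to 346 mock, 53 to 385 Ara-C and 33 to 321 DNR peaks. The lowest of these values are those of segment 4, which holds MYC, and in mock and DNR they lay below the highest value elsewhere. None of the mock segments elsewhere was as dense as the least dense one around MYC, while 2 Ara-C and 3 DNR segments were. The densest segment elsewhere was the same place in each list, from 42355001 on chromosome 10 in mock, with 442.7 mock, 680.3 Ara-C and 874.2 DNR peaks per Mb over 51.95, 58.8 and 46.9 kb.

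The edges of the segments were abrupt. Summed over the 12 edges, the 50 kb on the inner side held 328 mock, 350 Ara-C and 279 DNR peaks, and the 50 kb on the outer side held 0, 10 and 8. Each edge had 17 to 39 mock, 21 to 40 Ara-C and 10 to 38 DNR peaks on its inner side. The drop took place within about 5 kb. From the 5 kb inside to the 5 kb outside a mock edge, the summed number went from 35 to 6 in the Ara-C list and from 26 to 7 in the DNR list. The mock value of 0 outside follows from the definition.

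**Figure D2:**
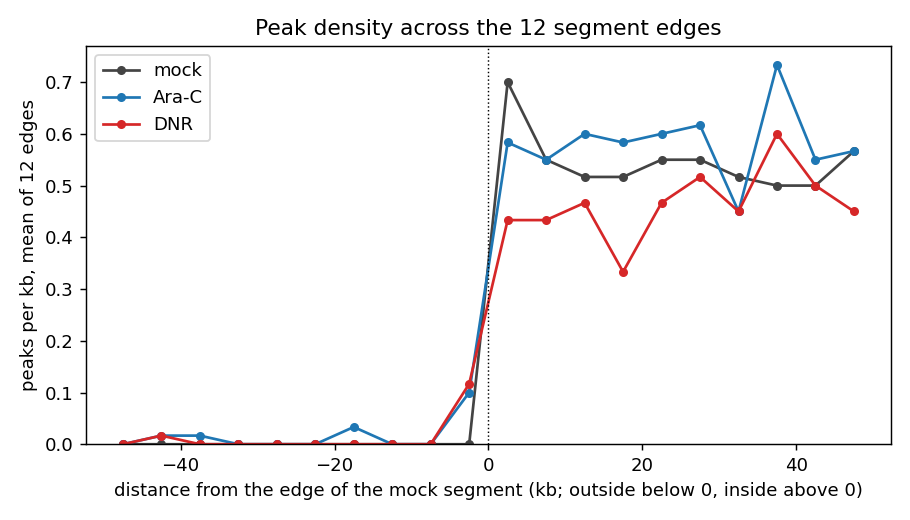
Peaks per kb (vertical axis, mean of the 12 edges, in bins of 5 kb) against the distance from the edge of the mock segment in kb (horizontal axis, outside below 0 and inside above 0) for the 3 lists. All 3 lines drop at the edge, from 0.583 to 0.1 peaks per kb in the Ara-C list and from 0.433 to 0.117 in the DNR list across the first bin on either side.

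Several edges fell at nearly the same base in the 3 lists. The right edge of segment 5 was at 130215150 in mock, 130215050 in Ara-C and 130215100 in DNR. The right edge of segment 2 was at 127386400, 127386250 and 127386150. The left edge of segment 6 was at 130367401, 130367701 and 130368101. These 3 edges are the ones at which all lists lay within 1000 bp of each other. The agreement depended on the 20 kb rule. With runs broken at 10 kb the lists lay 38200, 64100 and 19750 bp apart at these edges, because runs then broke at sparse places inside the segment.

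Over all 12 edges, the distance between the outermost and the innermost list had a median of 3650 bp and ranged from 100 to 27450 bp. It was at most 5 kb at 6 edges and at most 10 kb at 8. The widest difference was at the right edge of segment 3, at 128343750 in mock, 128343400 in Ara-C and 128316300 in DNR, where the DNR run broke at a gap and further DNR peaks followed beyond it. Lone peaks set other differences. The Ara-C list began segment 1 at 126206651 because of a single peak, and with runs broken at 10 kb it began at 126224951, 50 bp from the mock edge. In the MYC segment, the mock list ran on to a lone peak of 150 bp that ended at 128791500. With runs broken at 10 kb its right edge was at 128771600 in mock, 128771700 in Ara-C and 128771650 in DNR. Over all edges the 10 kb rule gave a median distance of 6125 bp, and 1 edge at which the lists lay within 1000 bp, against 3 with the 20 kb rule.

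Inside the segments the 6 blocks were similarly dense. The mock list had 474.3 (segment 4) to 654.8 (segment 5) peaks per Mb, the Ara-C list 503.8 (segment 3) to 701.6 (segment 5) and the DNR list 326.1 (segment 4) to 659.5 (segment 5). The ratio of the densest to the least dense block was thus 1.38 in mock, 1.39 in Ara-C and 2.02 in DNR. Neighbouring midpoints were a median of 1325 bp apart in mock, 1250 bp in Ara-C and 1450 bp in DNR. Peaks covered 11.9% to 15.9% of the bases of a segment in mock, 12.5% to 17.8% in Ara-C and 8.35% to 18.6% in DNR.

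At a scale of 10 kb the peaks were spread rather evenly. In the 184 windows of 10 kb inside the segments, the mean number was 5.38 in mock, 5.61 in Ara-C and 4.95 in DNR. The variance divided by the mean was 0.840, 0.894 and 0.956, so the windows varied no more than their mean number. Windows rich in one list tended to be richer in another, with Pearson's r of 0.42 between mock and Ara-C, 0.38 between mock and DNR and 0.36 between Ara-C and DNR. These correlations are a description over 184 neighbouring windows of 3 libraries, which share the segment, the base composition and the ease of mapping.

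The segments were set against the rest of the genome in peaks per sequenced Mb. Inside they held 544.5 mock peaks per Mb (95% Poisson interval 512 to 578.6), 566.5 Ara-C peaks (533.2 to 601.2) and 493.3 DNR peaks (462.3 to 525.8). The rest of the 10 Mb held 3.83, 10.0 and 2.47 peaks per Mb, fewer than the 15.8, 25.9 and 11.9 of the other chromosomes. The rest of chromosome 8 was sparser still, with 2.33, 5.26 and 1.39 peaks per Mb, so the low density was not particular to the DNA around the segments. The segments were 34.5 times as dense as the other chromosomes in mock, 21.9 times in Ara-C and 41.6 times in DNR.

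The number of peaks in the segments differed little between the lists, unlike elsewhere. Inside, the Ara-C list had 1.04 times as many peaks as the mock list (0.955 to 1.13) and the DNR list 0.906 times (0.829 to 0.990). On the other chromosomes the ratios were 1.64 (1.62 to 1.66) and 0.751 (0.740 to 0.762). In the rest of the 10 Mb, close to the segments, they were 2.61 (1.71 to 4.09) and 0.645 (0.349 to 1.17). The intervals are exact and cover counting error only, and with 1 library a condition they hold no variation between cultures.

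For Ara-C, the ratio in the segments lay below that of each of the 21 other autosomes, which ranged from 1.44 on chromosome 19 to 1.89 on chromosome 7. For DNR it lay above 18 of the 21, which ranged from 0.637 on chromosome 15 to 0.981 on chromosome 22, and below the other 3. In both lists, then, the segments were nearer to a ratio of 1 than most chromosomes.

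**Figure D3:**
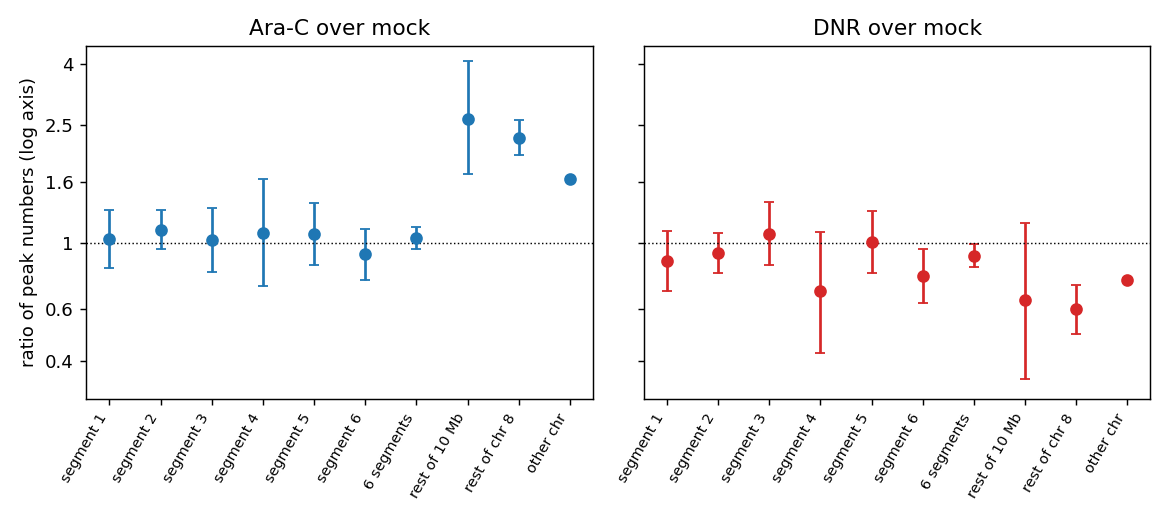
Ratio of the number of peaks in the Ara-C list (left) and the DNR list (right) to the mock list, on a log axis, in each mock segment, all 6 together, the rest of the 10 Mb, the rest of chromosome 8 and the other chromosomes, with exact 95% intervals that cover counting error only. Ara-C ratios are 0.916 to 1.11 in single segments against 1.64 on other chromosomes, and the DNR ratios run from 0.688 to 1.08.

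Single segments varied about these ratios. For Ara-C they ran from 0.916 in segment 6 (196 peaks against 214) to 1.11 in segment 2 (384 against 346), and each interval held 1. For DNR the MYC segment had the lowest ratio, with 33 peaks against 48 in mock, or 0.688 (0.428 to 1.09). Segment 6 followed with 166 against 214 peaks, or 0.776 (0.630 to 0.955), and its interval was the only one of the 12 that did not hold 1. Segment 3 had the highest DNR ratio, with 143 against 133 peaks (1.08, 0.843 to 1.37).

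Few coding genes lay in the segments. Of 32 protein-coding genes with a base in the 10 Mb, 4 reached into a segment. TRIB1 and MYC lay wholly inside, NSMCE2 and POU5F1B in part, and segments 2, 5 and 6 held no base of a coding gene. The segments had 1.57 coding genes with their 5′ end inside per Mb, against 3.46 per Mb in the rest of the 10 Mb. The nearest coding genes beyond the block were WASHC5, 120.8 kb to the left of segment 1, and GSDMC, 62.1 kb to the right of segment 6. LRATD2 lay 178.3 kb to the right of segment 2.

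The segment edges cut through genes, and the drug peaks, counted by midpoint, followed the mock edge and not the gene. The mock numbers outside, here and for the non-coding genes below, are low in part by definition, since a mock edge is where mock peaks stop. NSMCE2 encodes a SUMO ligase of the SMC5/6 complex. Its 154.5 kb inside segment 1 held 84 mock, 90 Ara-C and 65 DNR peaks, and the other 121 kb of the gene, with its 5′ end, held 0, 1 and 1. POU5F1B is a retrogene related to the pluripotency factor POU5F1. Its 9.32 kb inside segment 3 held 2, 5 and 3 peaks and its 88.6 kb outside held 0, 1 and 1.

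Long non-coding RNA genes showed the same cut. The 542.4 kb of CCDC26, a non-coding gene studied in myeloid leukaemia, that lay inside segments 5 and 6 held 353 mock, 345 Ara-C and 304 DNR peaks. Its other 507.2 kb held 0, 2 and 1. PCAT1, first described as a transcript of prostate cancer, had 133, 136 and 143 peaks in 269.9 kb inside and 0, 6 and 8 in 592.8 kb outside. CASC8, which runs through a region linked to cancer risk, had 11, 16 and 14 peaks in 41.7 kb inside and 0, 1 and 1 in 150.6 kb outside. LINC02964 had 171, 192 and 142 peaks in 310 kb inside and 0, 1 and 0 in 50.6 kb outside. Peaks at these genes cannot be assigned to 1 of them, since several overlap and a peak has no strand.

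Other non-coding genes lay wholly inside, and here a peak was counted when it shared a base with the gene. LINC00861 in segment 2 held 214 mock, 234 Ara-C and 209 DNR peaks over 433.1 kb, and CASC19 in segment 3 held 83, 83 and 88 over 154.8 kb. CASC11, which begins within MYC and runs away from it on the other strand, held 31, 37 and 23 over 52.6 kb. Per 100 kb these values lay between 43.7 (CASC11 under DNR) and 70.3 (CASC11 under Ara-C).

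Coding genes outside the segments had few peaks or none, counted as peaks that share a base with the gene. Of these 28 genes, 13 had at least 1 mock peak, 18 an Ara-C peak and 3 a DNR peak. The order is that of the sizes of the lists, 44265, 72279 and 33355 peaks, but the DNR number was further below mock than its list. Summed over these genes there were 26 mock, 47 Ara-C and 4 DNR peaks, with a peak at overlapping genes counted for each. All the rest of the 10 Mb held 31, 81 and 20 peaks. The share of all coding genes with a peak was not computed, so these numbers have no genome-wide share beside them. PVT1, the non-coding gene next to MYC and a frequent partner of it in amplified DNA, began 15.3 kb beyond the mock edge of the MYC segment. It had 1 mock peak (128923901 to 128924100), 2 Ara-C peaks and 0 DNR peaks over 392.6 kb. CCAT2, a short non-coding gene between segments 3 and 4, had none in any list.

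The remaining genes named by rule were likewise nearly empty. SQLE, an enzyme of cholesterol synthesis, had 1, 0 and 0 peaks, and MTSS1, a regulator of the actin cytoskeleton, had 1, 1 and 0. ASAP1, an activator of ARF GTPases, had 1, 6 and 0, and CYRIB, a regulator of RAC1 also known as FAM49B, had 3, 6 and 0. ADCY8, an adenylyl cyclase, had 0, 5 and 0 peaks, and the stress-responsive NDRG1 had 1, 1 and 0. The pore-forming gasdermin gene GSDMC had 1, 0 and 0, WASHC5, which encodes a subunit of the WASH complex, had 0, 1 and 0, and LRATD2, formerly FAM84B, had none. No DNR peak lay at any of these genes.

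MYC lies at 128747680 to 128755197 on the forward strand. Its body and the 2 kb upstream of its 5′-most start site were crossed by 11 mock peaks, 12 Ara-C peaks and 4 DNR peaks. These peaks covered 57.8% of that window in mock, 53.8% in Ara-C and 12.6% in DNR. Elsewhere in the MYC segment, 8.84% of the bases were covered in mock, 11.7% in Ara-C and 7.91% in DNR. The gene was therefore more covered than the rest of its segment in each list, and least so in DNR.

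The mock peaks at MYC were 150 to 1250 bp wide, with a median of 450 bp. The widest mock peak of all segments was one of them, at 128749151 to 128750400 within the gene body. Ara-C peaks lay on 1050 bp of it, and no DNR peak touched it. The 4 DNR peaks were 200 to 500 bp wide. Upstream of that start site, the 3 lists shared peaks at 128745901 to 128746600 and at 128746901 to 128747400 (mock positions). This 5′-most start site itself was not covered in any list. Transcripts that start further inside the gene are not counted in this statement.

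TRIB1 lies at 126442600 to 126450645 on the forward strand, in segment 1. Its body and 2 kb upstream were crossed by 8 mock, 9 Ara-C and 7 DNR peaks, which covered 45.3%, 51.2% and 19.9% of the window. In the rest of its segment 11.5%, 12.5% and 10.95% of the bases were covered. As at MYC, the DNR peaks were the narrowest. The median width was 600 bp in mock, 700 bp in Ara-C and 250 bp in DNR.

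The 5′-most start site of TRIB1 was covered in mock (126442251 to 126442800) and Ara-C (126442301 to 126443200) and not in DNR. After merging the lists, 3 regions in the gene body and 1 upstream held peaks of all of them. Of the 8 mock peaks, 6 were also met by Ara-C peaks and 5 by DNR peaks. The number of DNR peaks at TRIB1 was thus close to that of mock, while their summed length was 2000 bp against 4550 bp in mock.

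**Figure D4:**
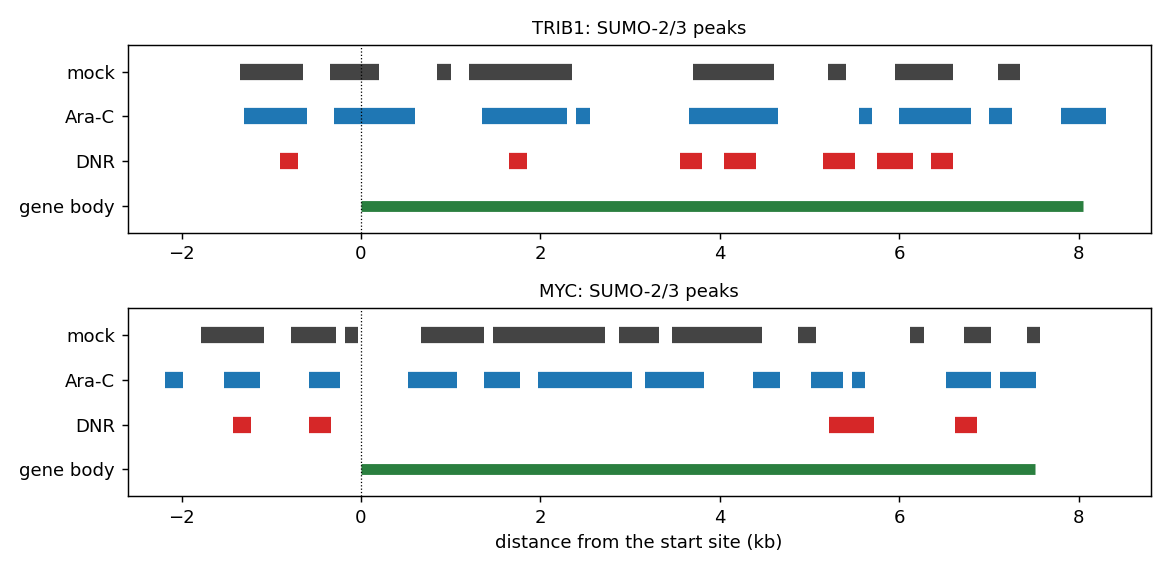
Positions of the SUMO-2/3 peaks of the 3 lists (bars, true width) at TRIB1 and MYC against the distance from the 5′-most start site in kb, with the gene body in green. Both genes are covered for 45.3% to 57.8% of the window by mock and Ara-C peaks and for 12.6% to 19.9% of it by DNR peaks.

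Peaks in the segments were wider than elsewhere. Width was the only measure of strength in the lists, and 150 bp was the shortest run that could be called in this stretch. The median was 200 bp inside and 150 bp on the other chromosomes in each list. Inside the segments, 25.0% of mock peaks were at least 300 bp wide (22.5 to 27.8). In the Ara-C list the share was 27.2% (24.65 to 29.9) and in the DNR list 28.8% (26.0 to 31.8). Elsewhere, on the other chromosomes, it was 9.36%, 7.69% and 4.56%. The share inside thus differed little between the lists, whereas on the other chromosomes it was lowest in DNR. That order did not hold near the segments, with 12.9%, 9.88% and 25% of 31, 81 and 20 peaks in the rest of the 10 Mb and 8.09%, 2.00% and 5.41% in the rest of chromosome 8.

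The share of very wide peaks varied between segments. Over all segments, 11.5% of mock, 13.8% of Ara-C and 13.2% of DNR peaks reached 400 bp. In the MYC segment it was 9 of 48 mock (18.75%, 10.2 to 31.9), 15 of 52 Ara-C (28.85%, 18.3 to 42.3) and 3 of 33 DNR peaks (9.09%, 3.14 to 23.6). In segment 5 the DNR list had the most, 33 of 141 peaks (23.4%, 17.2 to 31.0) against 17 of 140 in mock and 21 of 150 in Ara-C. The widest Ara-C peak (1100 bp) lay at 130681151 to 130682250 in CCDC26. Both widest DNR peaks (1000 bp) lay away from coding genes, at 128090301 to 128091300 in CASC19 and PCAT1 and at 128729751 to 128730750 in CASC11.

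The lists were next compared peak by peak. A peak counted as found again when it shared at least 1 bp with a peak of the other list. Of the 1042 mock peaks inside, 328 were found again in the Ara-C list (31.5%, 28.7 to 34.4) against 16.1% of the whole mock list, and 268 in the DNR list (25.7%, 23.2 to 28.5) against 3.38%. Counted the other way, 29.6% of the Ara-C peaks inside were found in mock against 9.82% of the whole Ara-C list, and 28.5% of DNR peaks inside against 4.48%. Between the drugs, 25.6% of Ara-C peaks inside were found in the DNR list against 2.54% of the whole list, and 29.7% of DNR peaks in the Ara-C list against 5.52%. All of these shares were above those of the whole lists.

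In such dense stretches peaks meet by position alone, so the other list was moved by 40 fixed distances of 5 to 100 kb and wrapped round within each segment. This background is a description and not a test. After moving, 25.25% of mock peaks met an Ara-C peak (23.1 to 27.0 over the shifts) and 21.9% met a DNR peak (19.6 to 24.0). The observed shares were 1.25 and 1.18 times these backgrounds. On the other chromosomes, 15.7% of mock peaks were found in Ara-C against 1.57% after moving, 10.0 times as many, and 2.86% in DNR against 0.730%, 3.92 times as many. Most of the overlap inside the segments was therefore also present when the lists were out of register.

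**Figure D5:**
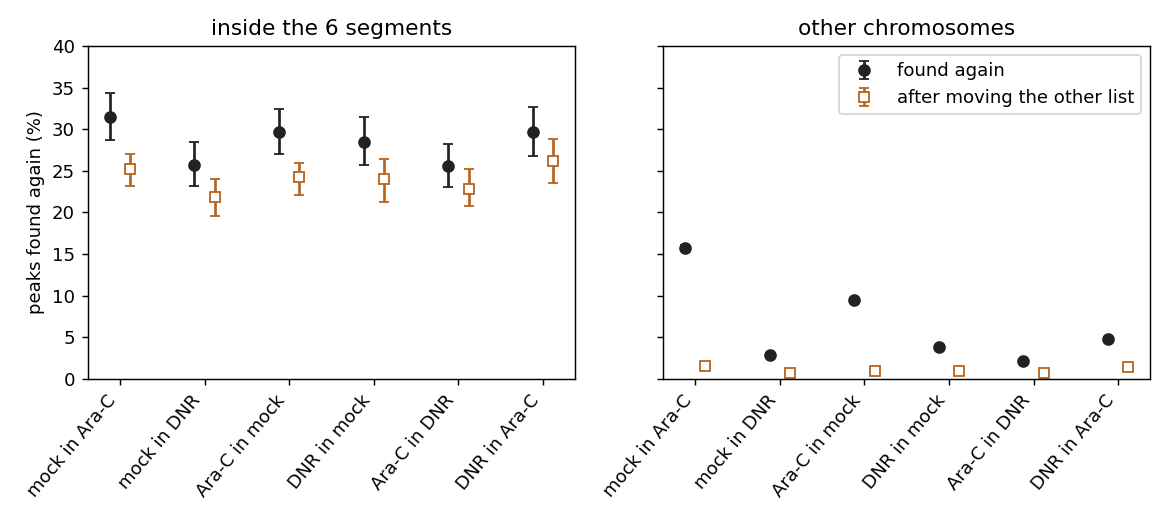
Share of peaks found again in another list (filled circles, with 95% Wilson intervals) and the same share after the other list was moved (open squares, mean with the lowest and highest of 40 shifts), inside the 6 segments (left) and on the other chromosomes (right). Inside, shares of 25.6% to 31.5% stand against 21.9% to 26.1% after moving, and on the other chromosomes 15.7% of mock peaks in Ara-C stand against 1.57%.

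Smaller shifts of 1 to 5 kb gave a background of 26.3% for Ara-C and 22.95% for DNR. The excess also varied with width. Of mock peaks of at least 300 bp inside, 46.0% were found in Ara-C against 33.2% after moving, and 41.0% in DNR against 29.0%. For those of 150 bp or less it was 24.0% against 20.4% and 21.3% against 17.7%. Mock peaks of 200 and 250 bp were found in DNR no more often than after moving, 19.4% against 19.6% and 22.0% against 23.85%. Among DNR peaks of at least 300 bp, 36.8% were found in mock against 31.2% after moving, a smaller excess than the 29.9% against 23.8% of those of 250 bp. Wide mock peaks of the other chromosomes were found again in 59.3% (Ara-C) and 10.9% (DNR) of cases, against 2.87% and 1.29%.

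The peaks at TRIB1 and MYC were looked at apart from the rest. Of the 19 mock peaks at TRIB1 and MYC, 15 were met by Ara-C peaks (78.9%, 56.7 to 91.5), against 30.2% after moving. For DNR it was 8 of 19 (42.1%, 23.1 to 63.7) against 23.8%, made up of 5 of 8 mock peaks at TRIB1 and 3 of 11 at MYC. For the other 1023 mock peaks inside the shares were 30.6% against 25.2% for Ara-C and 25.4% against 21.8% for DNR. These genes lie in segments 1 and 4, and the share found in Ara-C was highest in segment 4 (47.9% against 26.9% after moving) and lowest in segment 3 (26.3% against 21.5%). In segment 1, with TRIB1 and NSMCE2, it was 28.6% against 23.7%. For DNR the share ran from 22.2% in segment 2 (20.6% after moving) to 35.0% in segment 5 (29.7% after moving). It was 25.0% against 16.2% in segment 4 and 24.2% against 19.4% in segment 1.

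Merging the 3 lists gave 2261 regions inside the segments. Of these, 546 came from mock alone, 584 from Ara-C alone and 499 from DNR alone, and 132 were in all lists (5.84%, 4.95 to 6.88). The corresponding share on the other chromosomes was 0.491%. No background by moving was computed for regions of all 3 lists, so the higher share inside is not corrected for the density. By pairs of lists, the overlap was 1.12 to 1.25 times its moved background inside and 3.34 to 10.0 times on the other chromosomes. Each list thus contributed a similar number of its own regions inside the segments, whereas elsewhere 26.0% were mock alone, 46.0% Ara-C alone and 22.0% DNR alone. The widest region of all 3 lists lay at 128729251 to 128730750 in CASC11, 17.7 kb from the nearest coding start site, and was 1500 bp long.

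The DNA of the segments was slightly poorer in G and C than its surroundings, with 40.1% against 41.7% in the rest of the 10 Mb. Mock peaks inside had a mean GC content of 41.0%, Ara-C peaks 41.7% and DNR peaks 40.5%. Windows of the same width 2 kb to either side had 39.8%, 39.9% and 39.8%. Peaks of the other chromosomes had 46.8%, 45.9% and 45.8% against flanks of 43.0%, 42.5% and 43.3%. Peaks inside were thus nearer in base composition to their flanks than peaks elsewhere.

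The core motif of CTCF, an insulator protein that organises chromatin loops, was rare inside. Sought as a single consensus sequence, it was found on either strand in 2 mock peaks (0.192%), 2 Ara-C peaks (0.185%) and 1 DNR peak (0.106%). Elsewhere, on the other chromosomes, it was in 2.60%, 1.58% and 0.568% of peaks, against 0.0618%, 0.0433% and 0.073% of their flanking windows. The peaks with the motif were at 126714651 to 126715400 near the left end of segment 2 and at 128745901 to 128746600 upstream of MYC (mock positions). Both places had a peak in each list, and the DNR peak with the motif was the one upstream of MYC. In the flanking windows of the same width inside the segments, 0.144%, 0.138% and 0% held it, and the upper Wilson bound for 0 of 1888 DNR windows was 0.203%.

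The placement of peaks relative to genes was close to the make-up of the DNA of the segments, with somewhat fewer peaks in intergenic DNA. By midpoint, 83.5% of mock, 84.04% of Ara-C and 84.2% of DNR peaks lay in introns, which make up 81.9% of the bases. Exons held 4.13%, 4.43% and 4.24% of peaks against 3.61% of bases, and intergenic DNA 11.4% (9.63 to 13.5), 10.7% (8.998 to 12.7) and 11.1% (9.27 to 13.3) against 13.8%. The intergenic intervals of all 3 lists lay below the share of bases. The 2 kb before the start site of any coding transcript held 10 mock peaks (0.960%), 9 Ara-C peaks (0.830%) and 4 DNR peaks (0.424%), against 0.601% of bases. Their intervals ran from 0.522% to 1.76%, 0.437% to 1.57% and 0.165% to 1.08%, and each held the share of bases. With promoters of all annotated genes, which take 4.65% of the bases, the order of the lists was the opposite, 4.99% in mock, 5.26% in Ara-C and 5.30% in DNR. Elsewhere, on the other chromosomes, 9.13% of mock, 7.11% of Ara-C and 3.56% of DNR peaks lay in promoters of coding transcripts. These values compare with the 0.960%, 0.830% and 0.424% inside and not with those for all annotated genes.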

How the data were processed

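The samples were 3 SUMO-2/3 ChIP-seq libraries of HL-60 cells, 1 for each condition, and 3 inputs, not analysed here. The processed values used here, as deposited by the authors, are peak positions (chromosome, start and end), and the reads were not used here. Per the study's methods, the authors aligned reads to hg19 with CASAVA 1.8.2, removed piled-up reads (threshold 5 in mock and 4 in Ara-C and DNR), extended reads (to 210 bp in mock and Ara-C and 220 bp in DNR), scaled the libraries, subtracted the input with Pasha and called runs above a signal of 32 in bins of 50 bp, with gaps of at most 100 bp. The read number per library is not known from the lists, and with 1 signal threshold for all libraries, depth, scaling and the pile-up threshold, which differed between mock and the drugs, can move the number of peaks.

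Every start was read as 1-based, since it was 1 above the grid of 50 bp. The GRCh37 sequence held all peaks of the 3 lists within its nuclear chromosomes. Genes came from GENCODE 44 lifted to GRCh37. Peaks were placed by midpoint. Segments, shifts and overlap rules are given in the report. Shares carry 95% Wilson intervals, numbers exact Poisson intervals and ratios exact conditional intervals, all for counting error only. With 1 library per condition no test was made. Genes named were the coding genes in or next to a segment and a list of genes by name, and peaks named were those at MYC, PVT1 and TRIB1, the widest and the first and last of a segment. Non-coding genes with over 100 kb in the segments, and the widest region shared by the lists, were added after their values were seen. CCAT1 was on the list and was not analysed here. The members and gene lists were chosen with earlier results of these data known. The steps were tested on simulated data. Computations used Python 3.11.15, numpy 2.4.6, scipy 1.17.1 and matplotlib 3.10.9.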

Additional observations from a re-analysis of the deposited data

How the results depend on the processing

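In all, 21 values were recomputed under those of 12 alternatives that apply to each (gaps of 10 and 40 kb between peaks of a run, segments of the Ara-C or the DNR list as the frame, 50 kb windows with at least 5 peaks in place of runs, peaks of at least 200 bp, other overlap, shift and promoter rules). A share or ratio counted as moved when it left its interval, and a moved background when it left its range over the shifts. Numbers of peaks or segments and lengths counted as moved only when they differed by over 1.5 times. By this rule 100 of 116 values stayed and 16 moved, and no drug-to-mock ratio crossed 1. The DNR ratio, 0.906 by the main rule, ran from 0.904 (gap of 10 kb) to 0.959 (peaks of at least 200 bp). It was 0.932 with the DNR segments as the frame. Intervals of these alternative ratios are not given here, so whether they hold 1 is not stated. With a gap of 10 kb the Ara-C list had 11 segments. Requiring peaks of at least 200 bp, 28.5% of mock peaks were found again in Ara-C (21.8% after moving) and 22.0% in DNR (18.8%). With an overlap of at least 50% these were 22.9% (15.6%) and 15.6% (13.5%), and with a peak within 500 bp 69.1% (61.6%) and 61.1% (56.2%). The observed share stayed above the moved one in each case. With promoters of all annotated genes, 4.99% of mock, 5.26% of Ara-C and 5.30% of DNR peaks inside lay in promoters, the opposite order of the lists to that with coding genes. Leaving out peaks near TRIB1 and MYC was chosen after seeing the data and moved no value out of its range. No paired analysis was possible because a condition is 1 library only, and for the same reason no replicate could be left out. The limits are the unknown depth, the fixed calling threshold, the absence of peak heights and the pooling of cultures before sequencing. Copy number was not analysed here.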
